A study of Mus musculus with 3 samples.

Results

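Transcription factors that mark the states of T and NK cells were followed here, namely Tcf7, Lef1, Bach2, Tox, Tox2, Eomes, Tbx21, Id2, Id3 and Prdm1. These 10 of the 32285 annotated genes were taken by symbol and read in CD8 T cells, CD4 T cells, regulatory T cells and NK cells of mouse tumours. The cells came from 3 single-cell RNA libraries, 1 for each treatment group, so that no difference between groups has a replicate check. All tumours came from 1 Lewis lung carcinoma line, LLC1-sgLkb1, labelled as an LKB1 knockdown, given by tail vein and again under the skin 3 weeks later. The libraries titled Flox+ICI and Flox+RI stand for Sfrp2fl/fl mice treated with an immune checkpoint inhibitor alone or with radiation added. The library titled CKO+RI stands for Sfrp2ΔCol1a2 mice, in which the deletion is tied by its name to Col1a2, a collagen gene of fibroblasts, under radiation plus inhibitor. Its Sfrp2 counts do not bear that title out. In its kept cells 46 Sfrp2 UMIs (counted transcript molecules) were found, with 6 in those of Flox+ICI and 3 in those of Flox+RI. Totals per library differed and the deleted stretch of Sfrp2 is not given, so these counts cannot show the title to be wrong either. This library is therefore called the library labelled CKO+RI throughout. The series text describes unirradiated lung lesions as the tissue collected, while the labels say tumour. Neither the number of mice pooled in a library nor their age is given in the sources used here.

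Tcf7 (TCF-1) and Lef1 are HMG-box factors of the Wnt pathway that hold T cells in naive, memory and stem-like states, and Bach2 represses effector genes in the same cells. Tox and its relative Tox2 are induced by lasting antigen receptor signals and sustain the exhausted state of CD8 cells in tumours. The T-box factors Tbx21 (T-bet) and Eomes drive cytotoxic genes in CD8 and NK cells, Prdm1 (Blimp-1) drives terminal differentiation, and Id2 and Id3 block E proteins, Id2 being tied to effector and innate lymphocytes and Id3 to memory and stem-like cells.

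The stretches of 250 bases before the RefSeq starts of Bach2 and Tbx21 are shown because these genes carried calls between cell classes and large differences between libraries. RefSeq promoters were found for 9 of the 10 factors. In build GRCm38.p6 the Bach2 stretch is chr4:32417185-32417434 on the plus strand, inside the annotated Bach2 gene but in no exon, and that of Tbx21 is chr11:97115332-97115581 on the minus strand, in no exon. Capitals mark the E-box CANNTG, which Id proteins act on through E proteins, and the core CTTTG bound by Tcf7 and Lef1, searched on both strands. The T-box core TCACACC was searched too.
Bach2: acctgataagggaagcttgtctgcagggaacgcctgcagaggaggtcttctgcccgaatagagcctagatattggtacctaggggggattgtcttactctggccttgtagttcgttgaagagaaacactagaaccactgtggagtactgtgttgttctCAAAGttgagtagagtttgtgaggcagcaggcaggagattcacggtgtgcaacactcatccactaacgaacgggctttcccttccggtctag
Tbx21: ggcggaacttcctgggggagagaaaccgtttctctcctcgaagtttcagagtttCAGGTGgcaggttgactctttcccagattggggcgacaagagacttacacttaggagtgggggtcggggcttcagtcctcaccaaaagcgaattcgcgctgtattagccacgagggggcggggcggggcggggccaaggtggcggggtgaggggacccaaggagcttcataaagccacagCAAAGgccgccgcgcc
Bach2 held 0 E-boxes, 1 CTTTG core and 0 T-box cores, and Tbx21 held 1, 1 and 0, and no 2 matches overlapped. Such matches are common. Of 32851 promoter stretches of this length, 66.2% held an E-box, 48.6% the CTTTG core and 3.33% the T-box core.

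Cells were assigned from lineage transcripts that exclude the 10 factors, with rules for antigen receptor, Cd8a, Cd8b1, Cd4, Foxp3 and NK receptor UMIs. This gave 246 CD8 cells for Flox+ICI, 134 for Flox+RI and 234 for the library labelled CKO+RI, the order used for all values below. There were 91, 37 and 57 CD4 cells, 19, 34 and 14 regulatory T cells and 104, 14 and 72 NK cells, together 1056 of 29866 kept cells. The median CD8 cell held 2093, 1576 and 3397.5 UMIs, so depth was highest in the library labelled CKO+RI. All 5 regulatory T cell markers were found in the regulatory T cells of each library. Foxp3 is required there by the rules, however, and the other 4 were found in CD4 and CD8 cells too. Cd8b1 stood at 583, 638 and 649 CPM (UMIs per 1000000 UMIs of the class) in CD8 cells, which the rules select by Cd8a and Cd8b1. The presence of Foxp3 and Cd8b1 is thus no check on the classes. Transcripts of other cells were present as well. Summed myeloid markers stood at 885, 621 and 628 CPM in CD8 cells and 3362, 603 and 3175 CPM in NK cells, and Sftpc, an alveolar type 2 cell gene, at 14163 CPM in NK cells of Flox+ICI against 268 and 537 in the others. Between pairs of libraries 31 to 37 cell barcodes were shared, at most 0.366% of a library.

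Levels are given in CPM with exact Poisson intervals, and ratios with exact binomial intervals, all at 95% and for counting error only. UMI counts are not corrected for transcript length, so levels are compared within a gene. As a measure of free RNA, the same genes were read in macrophages, which held Tcf7 at 0.299 to 0.984 CPM, Lef1 at 0.197 to 0.802 CPM and Tox at 0.200 to 0.590 CPM. Macrophages held Bach2 at 28.1 to 44.9 CPM and Id2 at 232 to 287 CPM. For Id2, Id3 and Prdm1, which macrophages are known to express, these levels are no measure of free RNA.

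Tcf7 and Lef1 were highest in CD4 or CD8 T cells, by library. The class with the highest Bach2 value differed in each library. It rested on 12 UMIs of NK cells in Flox+RI and mostly on 1 regulatory T cell where labelled CKO+RI. NK cells held Bach2 at 2.02 (1.46 to 2.76), 1.75 (0.877 to 3.19) and 2.09 (1.37 to 3.11) times the CD8 level in library order. The edgeR test used below did not call this difference (adjusted p = 0.108). Tcf7 (ENSMUSG00000000782, chromosome 11, 52252371 to 52283014, minus strand) stood in CD8 cells at 65.1 CPM in Flox+ICI, 144 in Flox+RI and 29.4 for the library labelled CKO+RI. In CD4 cells its levels were 213, 95.3 and 102 CPM in that order. Regulatory T cells held 27.7, 18.7 and 11.5 CPM from 2, 2 and 1 UMIs, and NK cells 35.5, 67.0 and 11.2 CPM from 5, 1 and 2 UMIs. CD4 cells thus led except in Flox+RI, where the order was turned. In the other libraries the CD8 level was 0.305 times (0.195 to 0.479) and 0.290 times (0.160 to 0.537) the CD4 level. In Flox+RI it was 1.51 times, with an interval of 0.686 to 3.79 that holds 1.

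Lef1 (chromosome 3, 131110471 to 131224356, plus strand) had CD8 levels of 164, 324 and 139 CPM and CD4 levels of 349, 274 and 309.6 CPM. Its regulatory T cell levels were 207, 122 and 184 CPM, and NK cells had the lowest values at 78.0, 67.0 and 83.9 CPM, from 11, 1 and 15 UMIs. The ratio of NK to CD8 left out 1 in Flox+ICI (0.475, 0.230 to 0.883) but not in Flox+RI (0.207, 0.00517 to 1.19) or where labelled CKO+RI (0.605, 0.330 to 1.03). The CD4 intervals of the 3 libraries overlapped one another, while in CD8 cells Flox+RI lay above the other libraries with no overlap. Bach2 (chromosome 4, 32238804 to 32586108, plus strand) stood at 207, 459 and 91.1 CPM in CD8 cells, 526, 453 and 132 CPM in CD4 cells and 418, 804 and 190.1 CPM in NK cells. In each of these 3 classes the library labelled CKO+RI was the lowest, with an interval clear of both others. Regulatory T cells held Bach2 at 152, 56.1 and 195 CPM, but 16 of the 17 UMIs of the library labelled CKO+RI lay in 1 cell, and the 11 of Flox+ICI in 2 cells.

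The exhaustion factor Tox (chromosome 4, 6686353 to 6991557, minus strand) stood in CD8 cells at 329.9 CPM in Flox+ICI, 223 in Flox+RI and 410.1 for the library labelled CKO+RI. CD4 cells held 515, 179 and 223 CPM. Regulatory T cells held 1009, 281 and 321 CPM, and in Flox+ICI 17 of 19 of them had a Tox UMI. NK cells held 191, 201 and 106 CPM, the lowest class in the first and last library. Among regulatory T cells and among CD4 cells Flox+ICI was above both other libraries with no overlap of intervals. Tox2 (chromosome 2, 163203125 to 163324170, plus strand) was sparse, with 48 UMIs over all 4 classes, and the class with the highest level was CD4 in both Flox libraries, at 62.5 and 35.7 CPM from 12 and 3 UMIs.

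Tbx21 (chromosome 11, 97098071 to 97115331, minus strand) showed 1 order in all 3 libraries, with NK above CD8, CD8 above CD4 and CD4 above regulatory T cells. NK cells held 957, 1407 and 621 CPM in library order, and CD8 cells 274, 319 and 141 CPM. CD4 cells held 187, 95.3 and 91.4 CPM and regulatory T cells 83.0, 84.2 and 11.5 CPM. The step from CD8 to NK was clear of counting error in every library. The ratio of CD8 to CD4 had an interval that holds 1 where labelled CKO+RI (1.55, 0.947 to 2.68), and the step from CD4 to regulatory T cells was within counting error in Flox+ICI and Flox+RI. The related Eomes (chromosome 9, 118478212 to 118486132, plus strand) stood in NK cells at 128 CPM in Flox+ICI and 50.3 where labelled CKO+RI, and at 26.6, 21.9 and 44.6 CPM in CD8 cells of the 3 libraries. It had 0 UMIs in every set of regulatory T cells, in CD4 cells of all but Flox+ICI, and in the 14 NK cells of Flox+RI. The last zero allows a level of up to 201 CPM (3 counts), above the NK levels of the other libraries. By the same limit the regulatory T zeros of both Flox libraries and the CD4 zero of Flox+RI allow levels above their CD8 levels.

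Id2 (chromosome 12, 25093799 to 25097140, minus strand) was highest in NK cells in each library, at 574, 402 and 783 CPM. CD8 cells held 311, 223 and 657 CPM, CD4 cells 375, 250.1 and 457 CPM and regulatory T cells 166, 224 and 195 CPM. The CD8 level of the library labelled CKO+RI was far above both others and close to its NK level, from which it did not differ beyond counting error (ratio of NK to CD8 1.19, 0.986 to 1.43). Id3 (chromosome 4, 136143497 to 136145755, plus strand) had 53 UMIs over all classes, 14, 0 and 15 of them in CD8 cells. Thinned to 1000 UMIs per cell, 2.16%, 0% and 2.15% of CD8 cells had an Id3 UMI and 3.13%, 3.03% and 3.83% of macrophages did. With no cell type at hand that should lack Id3, these CD8 UMIs could not be told from free RNA. Prdm1 (chromosome 10, 44437177 to 44528501, minus strand) stood at 20.7, 39.3 and 44.6 CPM in CD8 cells from 14, 9 and 47 UMIs. Its thinned CD8 shares were 1.72%, 5.13% and 2.58%, from 4, 6 and 6 cells, and the macrophage shares 1.36%, 1.44% and 2.56%.

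**Figure D1:**
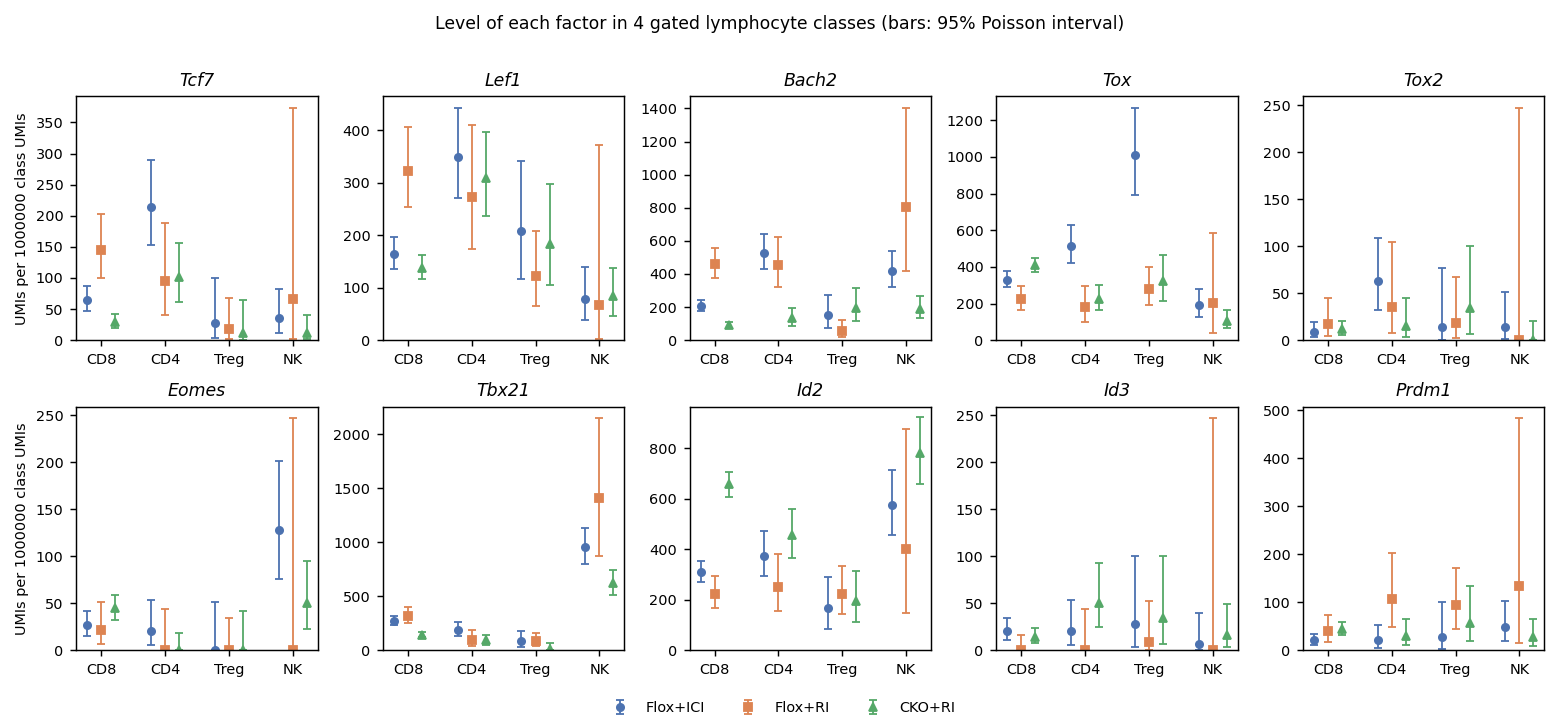
Level of each factor in UMIs per 1000000 UMIs of the class (vertical axis, from 0, scale differing between panels) for CD8, CD4, regulatory T (Treg) and NK cells (horizontal axis), with points for the 3 libraries and bars for exact 95% Poisson intervals. Tbx21 is highest in NK cells of each library (621 to 1407), Tox peaks at 1009 in regulatory T cells of Flox+ICI, and the wide bars over NK cells of Flox+RI come from 14 cells.

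Which factors separate the lymphocyte classes was tested over the libraries with edgeR's quasi-likelihood test, with the library as a block and Benjamini-Hochberg adjustment over all 5320 genes tested. Sums of at least 20 cells entered, which left 9 of 12 sums and 3 residual degrees of freedom. Each library is also 1 treatment group, so the spread behind these p-values is pooled over all classes and unlike libraries. Regulatory T cells entered only from Flox+RI, and NK cells only from Flox+ICI and the library labelled CKO+RI. Between CD8 and CD4 cells edgeR called 0 of the 9 factors tested at an adjusted p under 0.05, where 2.07% of all genes were called (0.883% higher and 1.18% lower in CD8 cells), and 5 had an unadjusted p under 0.05. The nearest was Tbx21, with a log2 fold change of 0.89 ± 0.26 (SE) and an adjusted p of 0.0964 in edgeR. Tcf7 followed at -1.11 ± 0.35 with an edgeR adjusted p of 0.139. DESeq2 called 0 factors as well, with 2 at an unadjusted p under 0.05. With sums of at least 10 cells edgeR again called 0, against 3.15% of all genes, with 3 at an unadjusted p under 0.05. In Flox+RI, Tcf7, Lef1 and Bach2 did not differ between the classes beyond counting error. Without that library edgeR called all 3 lower in CD8 than in CD4 cells, by 3.24-fold, 2.12-fold and 2.01-fold. These were 3 of 6 factors tested, against 188 of 4036 genes called, with 2 residual degrees of freedom.

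Tbx21 rose and Tox fell from CD8 to NK cells, 2 of 9 factors tested against 8.82% of all genes (4.83% higher and 3.98% lower in NK cells). For Tbx21 the log2 fold change was 1.84 ± 0.26 (SE, adjusted p = 6.01e-05, edgeR), or 3.57-fold higher. Within the libraries the ratio was 3.50 (2.78 to 4.39), 4.41 (2.58 to 7.24) and 4.39 (3.40 to 5.65), so NK cells were higher in 3 of 3. For Tox it was -1.46 ± 0.34 (adjusted p = 0.00804, edgeR), and the ratio within libraries was 0.580 (0.374 to 0.868), 0.901 (0.180 to 2.79) and 0.259 (0.154 to 0.409). NK cells of Flox+RI were too few for this fit. Myeloid marker transcripts were higher in NK than in CD8 cells of the other 2 libraries (above), and macrophages held Tbx21 at 0.401 to 4.04 CPM. The part of myeloid RNA in the fall of Tox was not tested. Leaving out the library labelled CKO+RI ended both calls, at adjusted p-values of 0.162 for Tbx21 and 0.445 for Tox in edgeR, with 3 factors at an unadjusted p under 0.05. With sums of at least 10 cells, an alternative chosen after seeing the data that admits all 12 sums and tests 3813 genes, Lef1 was also called lower (-1.24, adjusted p = 0.0217, edgeR), against 10.6% of all genes.

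Bach2 was called lower in regulatory T than in CD4 cells, 1 of 9 factors tested against 0.432% of all genes (0.169% higher and 0.263% lower in regulatory T cells). Its log2 fold change was -3.46 ± 0.60 (SE, edgeR), and it rests on the 34 regulatory T cells of Flox+RI, the 1 sum with enough cells. These held 6 Bach2 UMIs in 4 cells, or 56.1 CPM, not far above the macrophage levels given above. With 1 sum in the regulatory T arm, the p-value behind the call takes its spread from the other classes. It assumes that regulatory T cells vary like them. On simulated data of this layout 30% of 4-fold and 2% of 2-fold changes were recovered. With sums of at least 10 cells the change of Bach2 was -1.38 (adjusted p = 0.0455, edgeR), a smaller difference, since the ratio within libraries was 0.289 (0.140 to 0.540), 0.124 (0.0428 to 0.296) and 1.48 (0.753 to 2.83). The last ratio comes from the library labelled CKO+RI, where 1 cell held most of the UMIs. Tcf7 was called lower in regulatory T cells in that fit too, at -3.07 ± 0.60 (adjusted p = 8.78e-04, edgeR), where 4.75% of all genes were called. Its level was below that of CD4 cells in 3 of 3 libraries, at 0.130, 0.196 and 0.113 times. Leaving out the library labelled CKO+RI ended the Bach2 call (adjusted p = 0.372, edgeR).

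**Figure D2:**
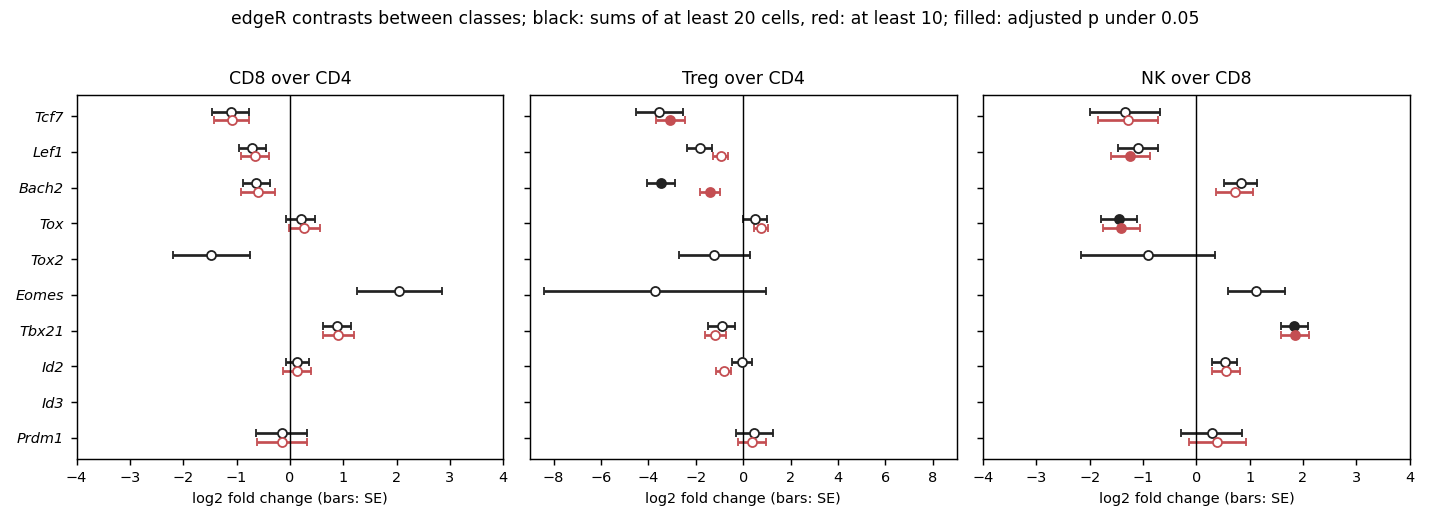
Log2 fold change of each factor (horizontal axis, bars for 1 SE) in 3 contrasts between classes from edgeR, with black points for sums of at least 20 cells, red points for at least 10, and filled points for an adjusted p under 0.05. Tbx21 at 1.84 and Tox at -1.46 are filled in NK over CD8, and Bach2 at -3.46 in regulatory T over CD4. Id3 did not pass the filter on low counts, and Tox2 and Eomes did not pass it with sums of at least 10 cells.

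Whether Sfrp2 deletion under radiation plus inhibitor goes with other T cell states was addressed by comparing the library labelled CKO+RI with Flox+RI. In CD8 cells of the former, Tcf7, Lef1, Bach2 and Tbx21 were lower and Id2 higher. Of 8 factors that reached 20 UMIs over the 2 libraries, 4 were at least 2-fold lower and 2 at least 2-fold higher. Over all 7054 genes so measured, 6.52% were at least 2-fold lower and 13.9% at least 2-fold higher. The median log2 ratio of the 8 factors was -0.50 and that of all genes 0.12.

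Bach2 differed most, from 96 and 105 UMIs at unlike totals, with a 5.04-fold lower level (3.78 to 6.71). Tcf7 was 4.90-fold lower (2.91 to 8.28), from 31 and 33 UMIs. Lef1 was 2.33-fold lower (1.74 to 3.11). All 3 naive and memory factors lay in the same direction, with intervals that leave out 1. The effector factor Tbx21 was 2.26-fold lower (1.68 to 3.005), whereas its relative Eomes was 2.04 times as high, from 47 and 5 UMIs, with an interval of 0.815 to 6.58 that holds 1. Id2 was 2.95-fold higher (2.22 to 3.997) and Tox 1.84-fold higher (1.37 to 2.51). Prdm1, at 1.13 times (0.549 to 2.63), did not differ beyond counting error. Tox2 and Id3 had too few UMIs for a ratio, at 12 against 4 and 15 against 0.

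The share of CD8 cells with a UMI of a factor moved with depth. It was higher in the library labelled CKO+RI for 8 of 10 factors as counted but for 4 of 10 after each cell was thinned to 1000 UMIs, which left out 1 cell of that library and 17 of Flox+RI. Thinned, a Bach2 UMI was found in 8.15% of cells against 31.6%, and a Tcf7 UMI in 3.86% against 11.1%. A Tbx21 UMI was found in 14.2% against 24.8%. Id2 stood at 43.3% against 17.9% and Tox at 22.7% against 9.40%. These 5 directions were thus those of the levels. The thinned share of Prdm1 went against its level (shares above), from 6 cells in each library, and Eomes had nearly the same share in both.

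Adding radiation to the inhibitor was addressed by Flox+RI against Flox+ICI, and both comparisons share the Flox+RI library. In CD8 cells 2 of 8 measured factors were at least 2-fold higher in Flox+RI and 0 lower, where 3.36% of all 6039 genes were at least 2-fold higher and 12.3% lower. These were Tcf7, at 2.22-fold (1.37 to 3.56) from 33 and 44 UMIs, and Bach2, at 2.22-fold (1.70 to 2.88) from 105 and 140 UMIs. Lef1 was just inside the limit at 1.97-fold (1.45 to 2.67). Other genes moved beside them. Of 6 measured dissociation stress genes 3 were at least 2-fold higher in Flox+RI and 0 lower (median log2 ratio 0.91), Fos at 214 against 78.4 CPM among them. Of 9 effector genes 4 were at least 2-fold lower, and of 5 proliferation genes 2 were, with Mki67 at 83.1 against 246 CPM. Their part in the factor ratios was not tested. With each cell given the same weight the ratios were smaller, at log2 0.57 for Tcf7, 0.80 for Bach2 and 0.44 for Lef1, and none passed 2-fold. Tox was 1.48-fold lower (1.09 to 2.05) and Id2 1.39-fold lower (1.02 to 1.93) in Flox+RI, while Tbx21, Eomes and Prdm1 had intervals that hold 1. The library labelled CKO+RI was also set against Flox+ICI, with 9 factors measured. The share of all genes apart beyond counting error was not computed for this pair, so the ratios are given as values only. Below Flox+ICI beyond counting error were Bach2 at 0.440 times (0.336 to 0.575), Tcf7 at 0.452 (0.276 to 0.732) and Tbx21 at 0.517 (0.414 to 0.645). Above it were Id2 at 2.11 times (1.81 to 2.48), Prdm1 at 2.15 (1.17 to 4.24) and Tox at 1.24 (1.06 to 1.47). Its Lef1 ratio to Flox+ICI was 0.844 (0.655 to 1.09), which holds 1.

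**Figure D3:**
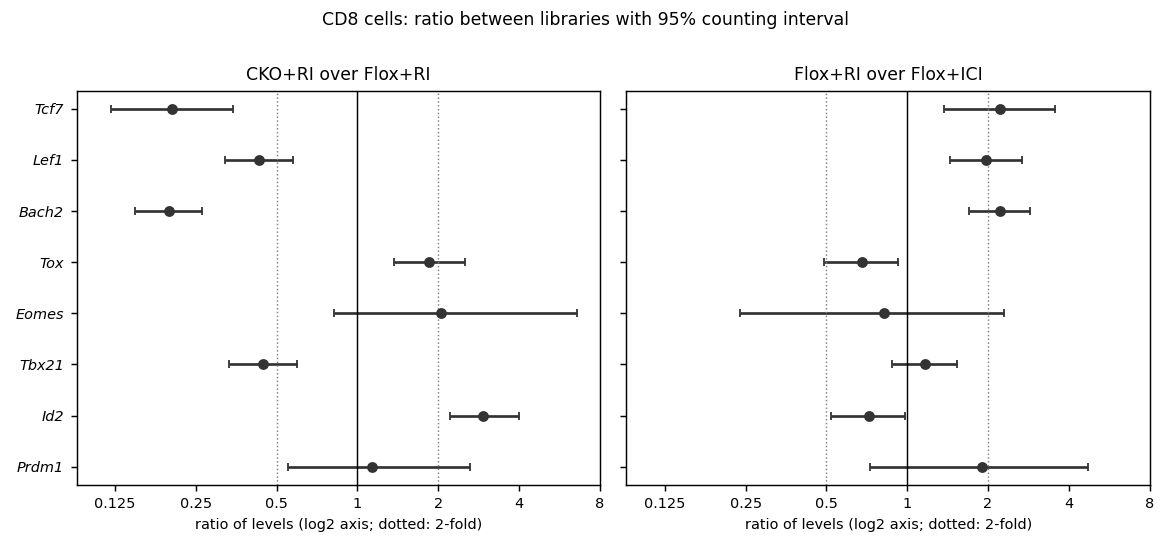
Ratio of the CD8 level of 8 factors between libraries (horizontal log2 axis), with exact 95% counting intervals as bars and dotted lines at 2-fold. In the left panel Bach2 and Tcf7 lie near 0.2 and Id2 at 2.95, and in the right panel Tcf7 and Bach2 lie at 2.22 and Id2 at 0.718.

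Other classes held fewer cells. In CD4 cells 1 of 6 measured factors was at least 2-fold lower in the library labelled CKO+RI than in Flox+RI and 0 higher, against 6.14% lower and 10.9% higher of 2491 genes. That factor was Bach2, 3.43-fold lower (2.03 to 5.88), while the ratios of Tcf7, Lef1, Tox and Tbx21 lay between 0.959 and 1.25 with intervals that hold 1. Id2 was 1.83-fold higher (1.13 to 3.09). All 5 proliferation genes and 2 of 4 measured regulatory T markers were at least 2-fold lower in these CD4 cells where labelled CKO+RI, and 0 higher. At least 2-fold higher were 3 of 6 measured stress genes and 3 of 5 measured effector genes, and 0 lower. Their part in the Bach2 and Id2 ratios was not tested. In NK cells 2 of 4 measured factors were at least 2-fold lower and 0 higher, against 16.6% and 12% of 1655 genes. They were Bach2 at 4.23-fold (1.99 to 8.37) and Tbx21 at 2.27-fold (1.35 to 3.64), with 14 NK cells in Flox+RI. The TMM scaling factors of these NK sums lay apart, at 1.38 in Flox+RI and 0.833 where labelled CKO+RI. Scaling by them makes both differences smaller. Tbx21 then lies within the 2-fold limit, while Bach2 stays past it. Also at least 2-fold higher where labelled CKO+RI were 2 of 3 measured myeloid genes and 2 of 2 tumour and epithelial genes, beside the 12% of all genes. Their part in the NK ratios was not tested. The library labelled CKO+RI was also below Flox+ICI in NK cells, at 190.1 against 418 CPM for Bach2 and 621 against 957 CPM for Tbx21. In regulatory T cells 1 of 4 was at least 2-fold higher and 0 lower, against 7.11% and 9.41% of 1701 genes. It was Bach2, whose log2 ratio turned from 1.80 to -1.69 when the 1 cell with the most Bach2 UMIs was left out of each library.

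Between Flox+RI and Flox+ICI, Tox was lower in Flox+RI in all 3 T cell classes. It was 2.88-fold lower (1.67 to 5.35) in CD4 cells and 3.60-fold lower (2.32 to 5.70) in regulatory T cells, beside 1.48-fold in CD8 cells. Tcf7 was 2.24-fold lower (1.04 to 5.53) in CD4 cells, the direction opposite to that in CD8 cells. The same CD4 cells held more of the regulatory T markers other than Foxp3, which is at 0 by the gate, with a summed level of 1489 CPM in Flox+RI against 927 in Flox+ICI and 964 where labelled CKO+RI, and 2 of 4 measured at least 2-fold higher than in Flox+ICI. All 5 proliferation genes were at least 2-fold higher there too, at 1632 against 666 CPM summed. Their part in the Tcf7 and Tox ratios was not tested. At least 2-fold lower were thus 2 of 6 measured factors in CD4 cells and 0 higher, against 10.6% and 3.88% of 2549 genes. In regulatory T cells 1 of 3 was lower and 0 higher, against 7.75% and 6.22% of 1625 genes. In NK cells 0 of 4 were at least 2-fold lower or higher, against 15% and 9% of 1477 genes.

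To place the factors along CD8 states, CD8 cells were split by transcripts of the checkpoint receptors Pdcd1, Havcr2 and Lag3, which are not among the factors and mark activated and exhausted cells. Cells with a UMI of any of them formed the checkpoint set, of 89, 17 and 116 cells in library order, or 36.2%, 12.7% and 49.6% of CD8 cells. Thinned to 1000 UMIs these shares were 21.6% (16.4 to 27.4), 9.40% (4.79 to 16.2) and 26.6% (21.1 to 32.8), lowest in Flox+RI. The other 157, 117 and 118 CD8 cells had none. Cells of the checkpoint set were deeper, at median UMIs of 3285, 1928 and 4398 against 1578, 1559 and 2798. This split and its minimum of 10 cells per sum were chosen after seeing the data.

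Tcf7, Lef1 and Bach2 fell and Tox rose from CD8 cells without a checkpoint receptor UMI to the checkpoint set, 4 of the 7 factors tested against 4.74% of 5020 genes (1.89% higher and 2.85% lower in the checkpoint set). Lef1 stood at 291, 342 and 304 CPM in cells without a receptor UMI and at 59.5, 233 and 44.6 CPM in the checkpoint set. Its log2 fold change was -2.32 ± 0.26 (SE, adjusted p = 1.30e-06, edgeR). Bach2 stood at 339.7, 521 and 144 CPM against 97.4, 155 and 61.0 CPM, a log2 fold change of -1.64 ± 0.22 (adjusted p = 2.00e-05, edgeR). Both were lower in the checkpoint set in 3 of 3 libraries, though for Lef1 in Flox+RI the interval of the ratio holds 1 (0.681, 0.298 to 1.37).

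Tcf7 stood at 118, 142 and 73.4 CPM without a receptor UMI and at 21.6, 155 and 4.46 CPM in the checkpoint set, a log2 fold change of -2.40 ± 0.44 (adjusted p = 8.74e-04, edgeR). The checkpoint set was thus lower in 2 of 3 libraries, at 0.184 times (0.0739 to 0.403) in Flox+ICI and 0.0608 times (0.0118 to 0.197) where labelled CKO+RI. In Flox+RI it was 1.09 times (0.369 to 2.70), from 6 and 27 UMIs. Tox went the other way, from 150.2, 142 and 147 CPM to 479, 621 and 559.6 CPM, with a log2 fold change of 1.79 ± 0.20 (adjusted p = 1.30e-06, edgeR). Within each set its intervals overlapped between all 3 libraries. Genes of other lists were called in the same fit. Of 6 stress genes 2 were lower in the checkpoint set, Fos at -1.15 (adjusted p = 0.00694, edgeR) and Jun at -0.72 (adjusted p = 0.0425, edgeR). Of 5 proliferation genes 2 were higher, Mki67 at 1.35 (adjusted p = 6.74e-04, edgeR) and Pclaf at 0.89 (adjusted p = 0.0208, edgeR). The myeloid gene Lyz2 (-0.89, adjusted p = 0.0106, edgeR) and Sftpc (-0.69, adjusted p = 0.0325, edgeR) were lower. Their part in the factor changes was not tested. This fit had 2 residual degrees of freedom. Leaving out Flox+ICI ended the calls of Bach2 (adjusted p = 0.0526, edgeR) and Tcf7 (adjusted p = 0.267, edgeR), and leaving out the library labelled CKO+RI ended that of Tcf7 (adjusted p = 0.0563, edgeR).

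The effector factors were not called. Tbx21 had a log2 fold change of -0.24 ± 0.20 (adjusted p = 0.611, edgeR) and Id2 one of 0.05 ± 0.19 (adjusted p = 0.946, edgeR). Prdm1 had one of 1.25 ± 0.45 (adjusted p = 0.121, edgeR), from 11, 3 and 38 UMIs in the checkpoint set against 3, 6 and 9. Tox2, Eomes and Id3 did not pass the filter on low counts. Tox2 had 5, 3 and 12 UMIs in the checkpoint set against 1, 1 and 0. Eomes was higher in the checkpoint set beyond counting error where labelled CKO+RI, at 3.24 times (1.44 to 8.58), with 59.5 against 18.4 CPM. Its ratio in Flox+ICI was 0.527 (0.173 to 1.49), which holds 1.

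**Figure D4:**
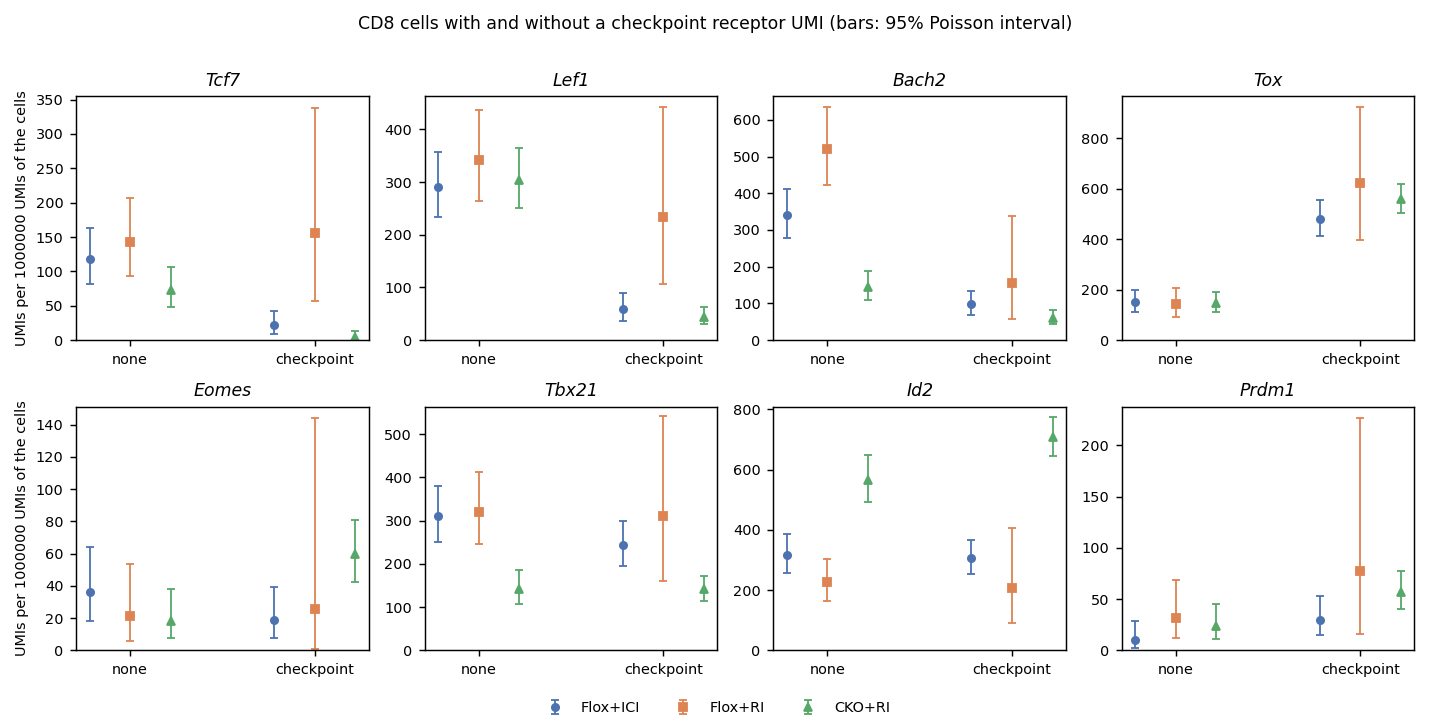
Level of 8 factors in UMIs per 1000000 UMIs of the cells (vertical axis, from 0, scale differing between panels) in CD8 cells with no checkpoint receptor UMI and with one (horizontal axis), for the 3 libraries, with exact 95% Poisson intervals. Lef1 and Bach2 descend from left to right in each library and Tox ascends to 479 to 621, while Id2 is highest in the library labelled CKO+RI in both sets (566 and 708).

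The share of the checkpoint set differed between libraries, so the factors were also compared within the CD8 cells that had no checkpoint receptor UMI. There Lef1 and Tox did not differ beyond counting error from Flox+RI in the library labelled CKO+RI, at ratios of 0.889 (0.651 to 1.22) and 1.03 (0.642 to 1.70). Bach2 was 3.61-fold lower (2.57 to 5.12), Tcf7 1.94-fold lower (1.10 to 3.41), and Tbx21 2.27-fold lower (1.55 to 3.33). Id2 stood at 566 against 226 CPM, with an interval of the ratio of 1.80 to 3.56. By the 2-fold limit 2 of 6 measured factors were lower and 1 higher, against 7.1% and 8.63% of 4311 genes. Between Flox+RI and Flox+ICI 0 of 6 were at least 2-fold higher or lower in this set, against 2.26% and 7.7% of 3986 genes. Bach2 was 1.53-fold higher (1.15 to 2.04) in Flox+RI, and the other 5 intervals hold 1, with a ratio of 1.21 (0.706 to 2.05) for Tcf7. Receptor UMIs are missed in shallow cells, and depth differed between libraries in this set.

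Genes that act beside the factors were read from lists in the same way. Of 27 other T cell state transcription factors, 24 were measured in CD8 cells for the CKO+RI label over Flox+RI. Of these 6 were at least 2-fold lower and 4 at least 2-fold higher, where 6.52% and 13.9% of all genes were. The median log2 ratio was 0.08 and that of all genes 0.12. Among the lower ones were Satb1, a chromatin organiser of T cells (128 against 393 CPM), Klf3 (65.5 against 201 CPM) and Foxp1, a guardian of naive T cell quiescence (178 against 520.3 CPM). Irf8, at 148 against 8.74 CPM, and Bhlhe40, at 177 against 43.7 CPM, were higher. The E proteins that Id2 and Id3 bind, Tcf3, Tcf4 and Tcf12, were all within 2-fold. Checkpoint and exhaustion genes had 7 of 9 at least 2-fold higher and 0 lower (median log2 ratio 1.34, beside the same 13.9% and 6.52% of all genes, as for the lists that follow), Havcr2 at 156 against 30.6 CPM and Pdcd1 at 213 against 65.6 CPM among them. Naive and memory genes had 1 of 5 measured higher and 1 lower, Il7r, the interleukin 7 receptor, at 105 against 349.8 CPM. Effector genes had 5 of 9 measured at least 2-fold higher and 1 lower (median log2 ratio 1.10). Summed, the effector list stood at 13869 against 9632 CPM, while the factor Tbx21 was lower (above). Of 7 dissociation stress genes 2 were at least 2-fold higher and 1 lower, with Hspa1a at 301 against 43.7 CPM. The part of handling in the factor ratios was not tested.

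In the class contrasts, 9 of 24 other state factors tested were called between NK and CD8 cells, 6 higher and 3 lower in NK cells, against 4.83% and 3.98% of all genes. Klf2, a factor of lymphocyte traffic, had a log2 fold change of 1.66 (adjusted p = 3.32e-04, edgeR), and Rbpj, the effector of Notch signals, -1.70 (adjusted p = 0.00837, edgeR). Between CD8 and CD4 cells 5 of 24 were called, against 2.07% of all genes, with Maf lower in CD8 cells at -3.38 (adjusted p = 8.06e-07, edgeR) and Zeb2 higher at 1.68 (adjusted p = 0.00256, edgeR). Between the CD8 sets 8 of 23 were called, 3 higher and 5 lower in the checkpoint set, against 1.89% and 2.85% of all genes. Klf3 (-2.96, adjusted p = 1.66e-06, edgeR) and Klf2 (-1.84, adjusted p = 4.95e-05, edgeR) went in the direction of Lef1 and Bach2, as did Satb1 (-0.90, adjusted p = 0.0132, edgeR). Irf8, an interferon regulatory factor, went in that of Tox (2.29, adjusted p = 5.14e-05, edgeR).

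Over the 12 sums of library and class, which share libraries and differ in depth, the genes most like each factor were found by Pearson's r of log2(CPM + 10) among 2486 genes with at least 200 UMIs. Lef1 was most like Stat5b (r = 0.96), Slco3a1 (0.93) and Il7r (0.89). Tbx21 was most like Pitpnc1 (0.95), Fcer1g (0.94), an adaptor of NK receptors, and Nfe2l2 (0.93). Bach2 was most like Setd7 (0.95), Tcf7 like Ssh2 (0.90), Id2 like Padi2 (0.88) and Tox like Rap1a (0.82). Among pairs of the factors the highest r was that of Lef1 and Tox2 (0.73) and the lowest that of Id3 and Prdm1 (-0.64), with few UMIs behind 3 of these 4 genes.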

How the data were processed

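Single-cell RNA of 3 libraries was deposited as UMI counts per gene and barcode, which the authors made with Cell Ranger (6.0 per the submitters' processing notes, 6.1.2 per the file headers) on mm10 (GRCm38). The processing notes also name Seurat 5.0.3. The deposited counts were not normalised. Barcodes had to show 200 genes or more and no more than 20% mitochondrial UMIs, and the highest doublet scores (scrublet, scanpy 1.11.5) were removed at 0.8% per 1000 barcodes, which left 29866 of 33482. The libraries held 75543561 to 161250286 UMIs, with medians of 2576.5 to 13406 per kept cell.

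T cells needed a Cd3 UMI, at least 2 antigen receptor UMIs that made up at least 5 per 10000, no Trdc UMI and fewer UMIs of other lineages than of the receptor. Lineage was set by Cd8a and Cd8b1, Cd4 or Foxp3. NK cells needed at least 2 UMIs of NK receptors (2.5 per 10000) and no Cd3, Cd4 or Cd8b1. Of the T cells, 375, 247 and 177 had no lineage UMI and were left out. Counts were summed per library and class. Classes were compared with edgeR 4.0.16 (TMM, filterByExpr, quasi-likelihood test, R 4.3.3) and, as an alternative, DESeq2 1.42.0, after both ratio and model steps were tested on simulated data. Libraries of a class were compared as ratios with no test, since a group is 1 library, and a gene at 0 was set to 3 counts. The named genes are the 10 factors, the largest differences in fixed lists, and the 3 genes most like a factor by r. The factors, lists and rules were chosen with earlier results of these data known. A planned split of CD8 cells is not reported here, and 1 gene was left out of a list. Alternatives are given in the closing section. Promoters came from RefSeq.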

Additional observations from a re-analysis of the deposited data

Results flagged for a closer look

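In 2 cases a factor went in opposite directions in 2 cell classes under the same comparison, each with a counting interval that leaves out 1. The difference between the classes was not tested, since each library is the only one of its group. Bach2 in the library labelled CKO+RI, relative to Flox+RI, had ratios of 0.199 in CD8 cells, 0.292 in CD4 cells and 0.236 in NK cells but 3.48 in regulatory T cells. In the 14 regulatory T cells of the library labelled CKO+RI, 2 cells had a Bach2 UMI and 1 of them held 16 of the 17. Without the cell with the most UMIs in each library the log2 ratio was -1.69, the direction of the other classes. Tcf7 in Flox+RI against Flox+ICI had a ratio of 2.22 in CD8 cells and 0.446 in CD4 cells, the latter from 8 and 41 UMIs. Under the strict gate, which asks for 2 lineage UMIs, the CD4 log2 ratio was 0.16.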

How the results depend on the processing

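No paired analysis was possible because each group holds 1 library; the class contrasts have the library as a block, and without this library term 0, 0 and 1 factors were called in CD8 over CD4, regulatory T over CD4 and NK over CD8, against 0, 1 and 2. In the same order, no filter on low counts gave 1, 3 and 3, the strict gate 0, 0 and 3, sums of at least 10 cells 0, 2 and 3, and DESeq2 0, 1 and 1. Leaving out 1 library in turn gave 0 to 3, 0 to 2 and 0 to 4, and 2 to 4 between the CD8 sets, where 4 were called in 6 of the 8 other settings. Without Flox+RI, CD8 over CD4 had 3 calls and NK over CD8 had 4, and regulatory T cells had no sum left. Without the library labelled CKO+RI no factor was called in these 3 contrasts. In CD8 cells of the library labelled CKO+RI, relative to Flox+RI, 4 to 7 factors were at least 2-fold apart in 8 other settings (6 as reported). In Flox+RI against Flox+ICI it was 0 with each cell given the same weight and 2 or 3 otherwise. In the other classes the strict gate gave 7 in place of 4 in the first comparison and TMM scaling 5 in place of 3 in the second. The higher shares of CD8 cells went from 8 to 4 of 10 on thinning. Of 344 single ratios, 324 stayed within their interval, 18 moved out of it and 2 reversed, Bach2 in regulatory T cells (log2 ratio -1.69 without the top cell) and Tcf7 in CD4 cells of Flox+RI against Flox+ICI (0.16, strict gate). The cause was not tested. Counts of all genes called moved by over 1.5 times as well. CD8 over CD4 had 110 and gave 38 in DESeq2, 29 without the library term, 13 under the strict gate, 166 without the filter, and 16, 70 and 188 without the library labelled CKO+RI, Flox+ICI and Flox+RI in turn. NK over CD8 had 469 and gave 156 in DESeq2, 198 without the library term, and 50 and 160 without the first and second of these libraries. Regulatory T over CD4 had 23 and gave 14, 1 and 6 in the first 3 settings named, 79 without the filter, 181 with sums of at least 10 cells, and 0 and 49 without the same 2 libraries. The CD8 sets had 238 and gave 47 in DESeq2, 122 without doublet removal, and 67, 33 and 441 without the library labelled CKO+RI, Flox+ICI and Flox+RI in turn. A sum of 14 cells held 14929 UMIs, so 1 UMI there is worth 67.0 CPM and levels under 201 CPM could not be told from 0.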

Other observations

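T cells with antigen receptor UMIs but no Cd8a, Cd8b1, Cd4 or Foxp3 UMI were left out of the classes and are given here as values. They numbered 375 for Flox+ICI, 247 for Flox+RI and 177 for the library labelled CKO+RI, with median depths of 1510, 1330 and 2405 UMIs. Their Bach2 levels were 519.6, 403 and 253 CPM and their Tcf7 levels 163, 135 and 115 CPM, in that order. Both were lowest in the last library, as among CD8 cells, but highest in Flox+ICI. Id2 stood at 249, 222 and 422 CPM and Lef1 at 385, 273 and 299.5 CPM. Tbx21 was at 191, 193 and 131 CPM.

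Pairs of factors were also read within single CD8 cells thinned to 1000 UMIs. A Lef1 UMI was found in 9 of the 16 Flox+ICI cells with a Tcf7 UMI (56.2%, 29.9 to 80.2) and in 28 of the 216 without one. Where labelled CKO+RI it was 3 of 9 against 33 of 224, and for Flox+RI 4 of 13 against 22 of 104. A Bach2 UMI was found in 10 of the 13 Tcf7 cells of Flox+RI and 27 of the 104 others, but in 3 of 16 against 40 of 216 for Flox+ICI and 0 of 9 against 19 of 224 for the last library. A Tox UMI was found in 1 of 16, 0 of 13 and 1 of 9 Tcf7 cells in library order, and in 45 of 216, 11 of 104 and 52 of 224 of the others.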
